A study of Mus musculus with 12 samples.

Results

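The genes described are Atf4, 5 targets of the transcription factor it encodes (Asns, Chac1, Trib3, Ddit3 and Sesn2) and 4 transcripts of amino acid transporters (Slc7a5, Slc3a2, Slc1a4 and Slc1a5), matched by symbol in the deposited gene count table. They are 10 of the 40406 entries kept, and all 10 passed the filter on low counts that left 15538 genes for testing. Several were picked because docetaxel moved them differently in the 2 genotypes. Their interaction values are therefore given as a description, with no test.

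RNA was sequenced in 4T1 cells, which come from a triple-negative breast tumour of a BALB/c mouse and were grown on dishes coated with poly-L-lysine. The 4 groups were cells labelled integrin β3 knockout after docetaxel, knockout-labelled cells after DMSO, wild-type cells after docetaxel and wild-type cells after DMSO, with 3 libraries each. Docetaxel, a taxane that stabilises microtubules, was given at 10 nM for 24 h, DMSO is its solvent, and all cultures then spent 48 h in medium without drug before harvest. The labels call the cultures of a group biological triplicates of 1 cell line, so p-values measure the spread between cultures. How the knockout was made, and whether its cells are 1 clone, is not stated in the labels, so a difference of clone and one of genotype cannot be told apart. The title and the genotype of wild-type DMSO library 1 call it wild type and were followed here, although its free-text description names the knockout.

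ATF4 is the main effector of the integrated stress response. In that response, kinases that sense amino acid shortage, misfolded protein, double-stranded RNA or haem lack phosphorylate the initiation factor eIF2, which lowers most translation while raising that of the Atf4 transcript. ATF4 then acts with C/EBP partners at response elements in genes that import amino acids, make them and charge tRNAs, and in genes such as Ddit3, Trib3 and Sesn2 that feed back on the response or on growth signalling. Much of this regulation is translational, so a transcript level is not a level of ATF4 protein.

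The promoter windows shown here hold the core of the ATF4 response element, TGATGNAA. It was searched on both strands of the 300 bases from 250 before to 50 after each RefSeq start (GRCm38.p6). Whether the motif bears on the levels of these genes was not tested. RefSeq promoters were in the table for 8 of the 10 genes, and 4 of these held the motif, against 1304 of 32851 promoters in the table (3.97%). The genes were listed as Atf4, its targets and transporters, so these shares are no independent support for the list. Each match is printed with up to 30 bases either side, on the strand of the gene, with the motif in capitals. It began at -23 from the start in Asns, on the strand of the gene, and at -193 in Chac1, +15 in Trib3 and -4 in Slc1a4, on the opposite strand. The windows lie at chr6:7693195-7693262 on the minus strand for Asns, chr2:119351019-119351086 on the plus strand for Chac1, chr2:152344011-152344076 on the minus strand for Trib3 and chr11:20332680-20332747 on the minus strand for Slc1a4.
Asns: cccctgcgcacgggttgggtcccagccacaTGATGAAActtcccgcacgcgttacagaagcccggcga
Chac1: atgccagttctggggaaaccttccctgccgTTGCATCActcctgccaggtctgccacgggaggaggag
Trib3: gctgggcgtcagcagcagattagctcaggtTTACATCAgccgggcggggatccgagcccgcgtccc
Slc1a4: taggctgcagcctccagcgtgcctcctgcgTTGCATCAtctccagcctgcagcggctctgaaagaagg
These letters were not found in the windows of Atf4, Ddit3, Sesn2 and Slc3a2, which says nothing about binding there. The Slc3a2 window (chr19:8713848-8714147, minus strand) lies inside the annotated gene. The start of that gene, at 8723369, was therefore not searched. Slc7a5 and Slc1a5 were not in the promoter table. Among the other genes of the pathway, the motif was found in 3 of 7 promoters of transcription factors that act beside ATF4 (Atf3, Jdp2 and Nupr1), 5 of 13 of cytosolic tRNA synthetases (Aars, Gars, Iars, Tars and Yars), 2 of 15 of other ATF4 targets, 2 of 20 of other amino acid transporters and 1 of 10 of serine, proline and one-carbon enzymes.

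The libraries held 28.7 to 40.8 mega-counts and detected 19840 to 22648 genes. The transcript of the targeted gene was not lower in knockout-labelled cells under DMSO. Itgb3 averaged 64.7 ± 2.14 CPM in knockout-labelled and 65.9 ± 5.67 CPM in wild-type DMSO libraries (SD, n = 3 each; log2 fold change -0.03, adjusted p = 0.874), where CPM are counts divided by the TMM-scaled library size in mega-counts. After docetaxel it averaged 62.4 ± 2.77 CPM in knockout-labelled and 83.1 ± 4.88 CPM in wild-type libraries (log2 fold change -0.41, adjusted p = 0.00765). Directions between genotypes therefore rest on the labels. The 7 epithelial markers of 4T1 summed to 2204 to 2873 CPM in knockout-labelled docetaxel, 3070 to 3258 CPM in knockout-labelled DMSO, 2099 to 2584 CPM in wild-type docetaxel and 2463 to 3118 CPM in wild-type DMSO libraries, with Krt5 at 0 to 0.115 CPM. Gm23935, a non-coding RNA gene, took 0.435 to 3.98% of counts in wild-type DMSO libraries and 0.293 to 1.51% in knockout-labelled docetaxel libraries, against 0.137 to 0.220% in the other 6.

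The 10 transcripts fell into 2 patterns. Of the 10, 9 were highest in wild-type DMSO cells, where every library lay above every library of the other 3 groups, and Slc1a5 differed little between groups. The share of all tested genes with such a gap was not counted. A level high only in wild-type DMSO cells also raises the interaction on which several genes were picked. The pattern is therefore a description and no independent support for the choice. For the 9, mean CPM in wild-type DMSO libraries was 1.47 times (Sesn2) to 2.55 times (Ddit3) that of the next highest group. The other 3 group means lay within 1.04 times (Atf4) to 1.26 times (Slc1a4) of each other for 8 of the 9, and within 1.70 times for Trib3. Because RNA was taken from whole cultures, fewer cells that express a gene and less of its RNA per cell cannot be told apart.

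**Figure D1:**
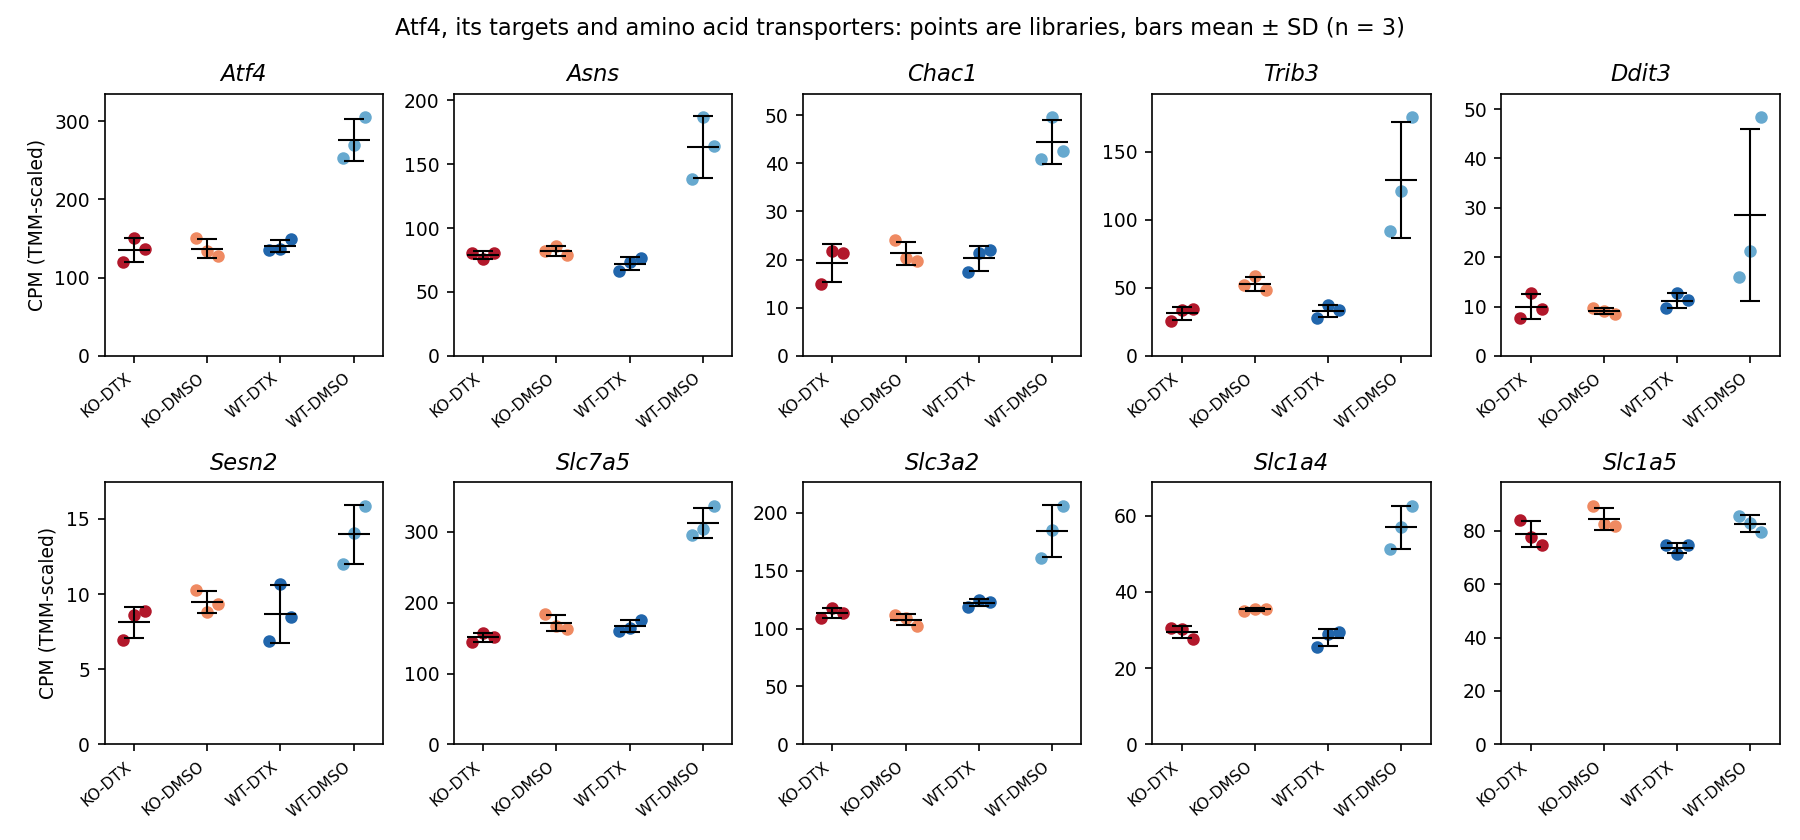
CPM (TMM-scaled, vertical axis from 0) of Atf4, its targets and the amino acid transporters in each of 12 libraries, with points for libraries and bars for the mean ± SD of the 3 libraries of a group (KO, knockout-labelled; WT, wild type; DTX, docetaxel). The wild-type DMSO points stand above all others in every panel but that of Slc1a5, and Ddit3 and Trib3 have their highest point in wild-type DMSO library 3.

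Atf4 (chr15:80255184-80257541, plus strand, GRCm38) gave 119.5, 150.4 and 136 CPM in knockout-labelled docetaxel libraries and 150.5, 134 and 127 CPM in knockout-labelled DMSO libraries. Wild-type docetaxel libraries had 135, 136 and 149.6 CPM, against 253, 269.6 and 305 CPM in wild-type DMSO libraries. The wild-type DMSO libraries stood apart, while those of the other 3 groups overlapped. Its log2 fold change after docetaxel was -0.02 in knockout-labelled cells (95% interval -0.24 to 0.20, adjusted p = 0.924). Atf4 was 1.96-fold lower after docetaxel in wild-type cells (log2 fold change -0.97 ± 0.10 SE, adjusted p = 2.77e-05). It was 2.01-fold lower in knockout-labelled than in wild-type cells under DMSO (-1.01 ± 0.10, adjusted p = 1.89e-05). All p-values here are from edgeR's quasi-likelihood test with Benjamini-Hochberg adjustment over the 15538 genes, called at 0.05. Both comparisons against wild-type DMSO cells use the same 3 libraries, which also enter the interaction that chose several of the genes, so these p-values describe the genes and are no independent support for the choice.

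Asns makes asparagine out of aspartate and glutamine (chr6:7675169-7693254, minus strand). Its libraries held 80.7, 75.7 and 80.9 CPM in knockout-labelled docetaxel cells and 82.0, 86.1 and 78.7 CPM in knockout-labelled DMSO cells. It had 66.5, 73.4 and 76.6 CPM after docetaxel in wild-type cells, against 138, 187 and 165 CPM in their DMSO libraries. The lowest wild-type DMSO library thus exceeded the highest library elsewhere, which was a knockout-labelled DMSO one. After docetaxel its log2 fold change in knockout-labelled cells was -0.06 (interval -0.27 to 0.16, adjusted p = 0.755). Asns was 2.26-fold lower after docetaxel in wild-type cells (log2 fold change -1.18 ± 0.10, adjusted p = 5.62e-06) and 1.98-fold lower in knockout-labelled cells under DMSO (-0.99 ± 0.10, adjusted p = 1.95e-05).

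Chac1 encodes an enzyme that breaks down glutathione (chr2:119351229-119354381, plus strand). It was counted at 14.8, 21.8 and 21.3 CPM in knockout-labelled docetaxel and 24.1, 20.3 and 19.7 CPM in knockout-labelled DMSO libraries. Wild-type docetaxel libraries held 17.3, 21.5 and 22.0 CPM, against 40.9, 49.5 and 42.7 CPM in wild-type DMSO libraries. The 3 lower groups overlapped throughout. Docetaxel in knockout-labelled cells gave a log2 fold change of -0.15 (interval -0.46 to 0.17, adjusted p = 0.551). The fall after docetaxel in wild-type cells was 2.19-fold (log2 fold change -1.13 ± 0.15, adjusted p = 0.000145), and knockout-labelled cells under DMSO were 2.08-fold lower than wild type (-1.06 ± 0.15, adjusted p = 0.000319).

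Trib3 encodes a pseudokinase that binds AKT and ATF4 and dampens the response (chr2:152337422-152344032, minus strand). It had 25.9, 33.5 and 34.1 CPM in knockout-labelled docetaxel libraries and 52.2, 58.7 and 48.3 CPM in knockout-labelled DMSO libraries. The wild-type docetaxel libraries gave 28.0, 37.3 and 33.8 CPM and the wild-type DMSO libraries 91.8, 121 and 175 CPM. Trib3 alone among the 10 passed the test for docetaxel in both genotypes, and its 4 groups formed 3 levels, with both docetaxel groups overlapping at the bottom. Trib3 was 1.70-fold lower after docetaxel in knockout-labelled cells (log2 fold change -0.77 ± 0.19, adjusted p = 0.0149), a call that was lost without knockout-labelled docetaxel library 1 (adjusted p = 0.0633) or knockout-labelled DMSO library 2 (adjusted p = 0.0675). It was 3.92-fold lower after docetaxel in wild-type cells (-1.97 ± 0.20, adjusted p = 1.81e-05). Under DMSO it was 2.44-fold lower in knockout-labelled than in wild-type cells (-1.28 ± 0.19, adjusted p = 0.000509).

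Ddit3 encodes CHOP, a C/EBP-family factor tied to cell death in prolonged stress (chr10:127290774-127296288, plus strand). Its levels were 7.70, 12.7 and 9.47 CPM in knockout-labelled docetaxel and 9.62, 9.02 and 8.40 CPM in knockout-labelled DMSO libraries. They were 9.66, 12.6 and 11.3 CPM in wild-type docetaxel and 15.99, 21.3 and 48.3 CPM in wild-type DMSO libraries. The group did not overlap with the others, but its library 3 was more than double either of its partners in level, so the mean of 28.5 ± 17.3 CPM rests largely on it. The log2 fold change after docetaxel was 0.14 in knockout-labelled cells (interval -0.54 to 0.82, adjusted p = 0.811). After docetaxel in wild-type cells Ddit3 was 2.55-fold lower (log2 fold change -1.35 ± 0.31, adjusted p = 0.00573). Without wild-type DMSO library 3 the log2 fold change was -0.74 (adjusted p = 0.0147), and that of knockout-labelled against wild-type cells under DMSO was -1.05 (adjusted p = 0.00293), against -1.66 ± 0.32 with it (adjusted p = 0.00286). The Ddit3 exons share 68 bases (3.97% of their length) with Mars on the opposite strand, whose median count was 2924 against 370 for Ddit3, and the labels do not say whether the counting used strand. They also share 105 bases (6.13%) with another annotated protein-coding gene of the same symbol on the same strand. Matching by symbol cannot tell these genes apart.

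Sesn2 encodes a leucine-binding stress protein that restrains the growth kinase complex mTORC1 (chr4:132492032-132510501, minus strand). It was counted at 243 to 470 reads a library. Knockout-labelled docetaxel libraries had 6.94, 8.58 and 8.87 CPM and knockout-labelled DMSO libraries 10.3, 8.83 and 9.31 CPM. The wild-type docetaxel libraries had 6.86, 10.7 and 8.48 CPM, and the wild-type DMSO libraries 12.0, 14.0 and 15.9 CPM. As a ratio of group means, its gap between wild-type DMSO and the next group was the narrowest of the 9. The change after docetaxel in knockout-labelled cells was -0.22 on the log2 scale (interval -0.58 to 0.13, adjusted p = 0.39). Sesn2 was 1.61-fold lower after docetaxel in wild-type cells (log2 fold change -0.69 ± 0.16, adjusted p = 0.00686). The 1.47-fold lower level in knockout-labelled cells under DMSO (-0.56 ± 0.16, adjusted p = 0.032) lost its call without any of the 3 knockout-labelled DMSO libraries (adjusted p = 0.0613, 0.101 and 0.0905), without wild-type DMSO library 2 (adjusted p = 0.0708) or without wild-type DMSO library 3 (adjusted p = 0.103).

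Slc7a5 and Slc3a2 encode the chains of a heterodimer that exchanges large neutral amino acids such as leucine. SLC7A5 is the transporting chain, and SLC3A2, also called CD98 heavy chain, carries it to the membrane, serves other light chains and is known to bind integrin β chains. Slc7a5 (chr8:121881150-121907694, minus strand) was counted at 144, 158 and 151 CPM in knockout-labelled docetaxel and 185, 167 and 163 CPM in knockout-labelled DMSO libraries. Wild-type docetaxel libraries held 159.9, 164 and 176 CPM and wild-type DMSO libraries 296, 304 and 337 CPM. The spread within each group was small beside the gap to wild-type DMSO. In knockout-labelled cells every docetaxel library lay below every DMSO library, but the log2 fold change of -0.18 (interval -0.36 to -0.01) did not pass (adjusted p = 0.143). Slc7a5 was 1.87-fold lower after docetaxel in wild-type cells (log2 fold change -0.90 ± 0.08, adjusted p = 8.13e-06) and 1.82-fold lower in knockout-labelled cells under DMSO (-0.87 ± 0.08, adjusted p = 1.03e-05).

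Slc3a2 (chr19:8706882-8723369, minus strand) had 109, 118 and 113 CPM in knockout-labelled docetaxel libraries and 112, 109 and 102 CPM in knockout-labelled DMSO libraries. It had 119, 125 and 123 CPM in wild-type docetaxel libraries, against 161, 185 and 206 CPM in wild-type DMSO libraries. Its order thus matched that of Slc7a5 at the top, while the order of the 3 lower group means differed between both chains. Neither tested comparison among those lower groups passed for either gene, so nothing is read from that order. The log2 fold change of Slc3a2 after docetaxel was 0.08 in knockout-labelled cells (interval -0.11 to 0.26, adjusted p = 0.61). Slc3a2 was 1.505-fold lower after docetaxel in wild-type cells (log2 fold change -0.59 ± 0.09, adjusted p = 0.000375) and 1.71-fold lower in knockout-labelled cells under DMSO (-0.77 ± 0.09, adjusted p = 5.27e-05).

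Slc1a4 and Slc1a5 encode related sodium-dependent exchangers of small neutral amino acids, the first known for serine and alanine and the second for glutamine. Slc1a4 (chr11:20302180-20332713, minus strand) had 30.4, 30.2 and 27.7 CPM in knockout-labelled docetaxel and 34.9, 35.6 and 35.6 CPM in knockout-labelled DMSO libraries. Wild-type docetaxel libraries held 25.5, 29.0 and 29.5 CPM, against 51.1, 57.0 and 62.6 CPM in wild-type DMSO libraries. Its groups stood at 3 levels like those of Trib3, with both docetaxel groups overlapping at the bottom. The log2 fold change of -0.26 ± 0.09 after docetaxel in knockout-labelled cells did not pass (adjusted p = 0.0665), though it did with DESeq2 (adjusted p = 0.0469), with upper-quartile scaling (adjusted p = 0.033) and without wild-type DMSO library 1 (adjusted p = 0.0415). Slc1a4 was 2.03-fold lower after docetaxel in wild-type cells (log2 fold change -1.02 ± 0.09, adjusted p = 8.13e-06) and 1.61-fold lower in knockout-labelled cells under DMSO (-0.69 ± 0.09, adjusted p = 0.000229).

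Slc1a5 (chr7:16781340-16798274, plus strand) had 84.2, 77.5 and 74.8 CPM in knockout-labelled docetaxel libraries and 89.3, 82.4 and 81.9 CPM in knockout-labelled DMSO libraries. It had 74.5, 71.2 and 74.5 CPM after docetaxel in wild-type cells, against 85.6, 82.9 and 79.5 CPM in their DMSO libraries. Its highest group mean was that of knockout-labelled DMSO cells, and that group overlapped with wild-type DMSO. None of its 4 comparisons passed the test. The log2 fold change after docetaxel was -0.10 (interval -0.26 to 0.06, adjusted p = 0.395) in knockout-labelled and -0.17 (interval -0.33 to -0.01, adjusted p = 0.102) in wild-type cells. Under DMSO it was 0.03 between knockout-labelled and wild-type cells (interval -0.13 to 0.19, adjusted p = 0.82). Its interaction value was 0.07 ± 0.11, the smallest of the 10.

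**Figure D2:**
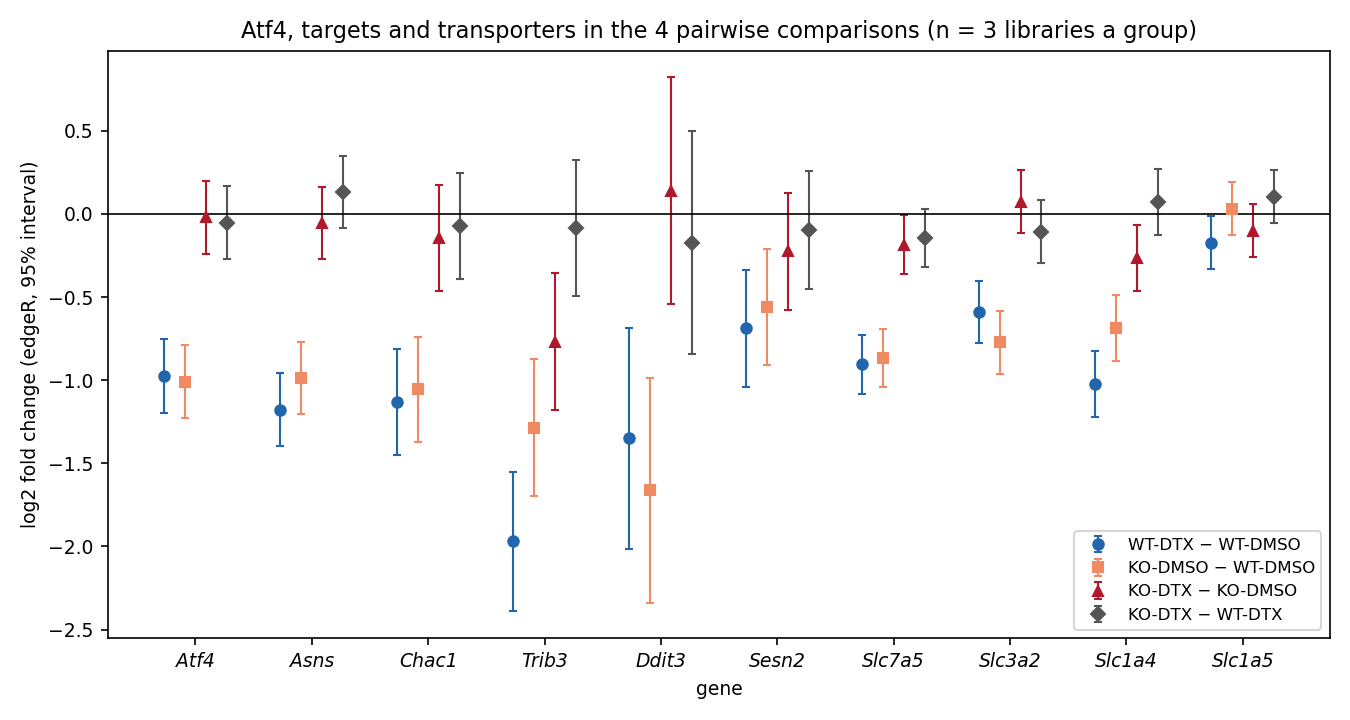
Log2 fold changes (vertical axis) of each gene in 4 pairwise comparisons, with 95% intervals from the edgeR fit of 12 libraries (3 a group). For 9 genes the comparisons of wild-type docetaxel and of knockout-labelled DMSO with wild-type DMSO cells lie between -1.97 and -0.56, while knockout-labelled against wild-type cells after docetaxel lies between -0.17 and 0.13 for all 10.

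Across the 10 genes, docetaxel lowered 1 (Trib3) in knockout-labelled cells and raised none, where 7.00% of the 15538 tested genes were called lower and 9.09% higher. Of the 10, 3 (Trib3, Slc7a5 and Slc1a4) lay lower there without overlap of libraries, against 18.5% of tested genes. In wild-type cells docetaxel lowered 9 and raised none, where 13.8% of tested genes were called lower and 14.5% higher. All 10, Slc1a5 included, lay lower without overlap in wild-type cells, which held for 19.3% of tested genes. The median log2 fold change of the 10 was -0.12 in knockout-labelled cells, against 0.00 over all tested genes, and -0.999 in wild-type cells, against 0.02.

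Under DMSO, knockout-labelled cells had lower levels of 9 of the 10 than wild-type cells and higher levels of none, where 9.20% of tested genes were called lower and 6.60% higher. The same 9 had no overlap of libraries, against 16.9% of tested genes lying lower in that way. The median was -0.93, against 0.01 over all tested genes. After docetaxel, none of the 10 passed the test between genotypes, where 3.39% of tested genes were called lower and 2.50% higher. None passed an unadjusted p of 0.05, and DESeq2 and limma-voom also called none. There Slc7a5 and Slc3a2 lay lower without overlap, as 13.2% of tested genes did, and Slc1a5 lay higher, as 11.9% did, its lowest knockout-labelled library at 74.8 CPM against 74.5 CPM in the highest wild-type one. The intervals of that comparison spanned 0 for all 10 and were widest for Ddit3, at -0.84 to 0.50.

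The interaction, which is the change after docetaxel in knockout-labelled cells minus that in wild-type cells, was positive in all 10. Of all tested genes, 49.9% had a positive value. It ranged from 0.46 ± 0.23 (Sesn2) to 1.49 ± 0.44 (Ddit3) for 9 of the 10. The 95% interval spanned 0 for Sesn2 (-0.03 to 0.96) and Slc1a5 (-0.16 to 0.30). The interaction was 0.96 ± 0.14 for Atf4, 1.12 ± 0.14 for Asns, 0.98 ± 0.21 for Chac1 and 1.20 ± 0.27 for Trib3. Among the transporters it was 0.72 ± 0.12 for Slc7a5, 0.66 ± 0.12 for Slc3a2 and 0.76 ± 0.13 for Slc1a4. Without wild-type DMSO library 3 the value for Ddit3 was 0.88 and that for Trib3 0.92. Over all tested genes 17 (0.109%) were called, and nothing is read from this for genes picked on that contrast.

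Levels were set beside each other between genes only per kilobase of annotated exon. In wild-type DMSO libraries Atf4 led with 117 CPM per kb, followed by Slc7a5 with 84.2. Next were Trib3 (60.8 ± 19.9), Asns (59.6 ± 8.88) and Slc3a2 (52.1 ± 6.41) CPM per kb, whose order lies within their spread. Chac1 followed with 27.1 CPM per kb, then Slc1a5 with 19.8, Ddit3 with 16.7 ± 10.1, Slc1a4 with 14.5 and Sesn2 with 4.02, where the place of Ddit3 beside its neighbours is within its spread. In knockout-labelled docetaxel libraries Atf4 (57.4) and Slc7a5 (40.7) still led in CPM per kb, and Trib3, at 14.7, was below Slc3a2 (32.2), Asns (28.9) and Slc1a5 (18.9).

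Counts in the pathway lists that follow stand beside these shares of all tested genes. Docetaxel lowered 7.00% and raised 9.09% in knockout-labelled cells, and lowered 13.8% and raised 14.5% in wild-type cells. Between genotypes, 9.20% were lower and 6.60% higher in knockout-labelled cells under DMSO, and 3.39% and 2.50% after docetaxel. Upstream of ATF4, more transcripts of the eIF2 kinases and their regulators were called higher than lower after docetaxel in both genotypes. Of 9 tested, docetaxel raised 3 in knockout-labelled cells: Eif2ak2, the kinase PKR that senses double-stranded RNA (118 ± 10.3 CPM against 59.1 ± 6.14 CPM under DMSO, log2 fold change 0.998 ± 0.0939, adjusted p = 8.44e-06), Eif2s1, which encodes the subunit of eIF2 that is phosphorylated, and Ppp1r15a, which encodes the phosphatase subunit that ends the response. Eif2ak4, the amino acid sensor GCN2, was the 1 called lower (-0.28 ± 0.08, adjusted p = 0.0311), a call lost in 9 of 23 alternative fits. Without knockout-labelled DMSO library 2 or library 3, 1 was higher in place of 3. In wild-type cells 3 were higher and 0 lower after docetaxel: Eif2ak2 (128 ± 6.27 CPM against 93.8 ± 5.12 CPM under DMSO, 0.45 ± 0.09, adjusted p = 0.00296), the haem-regulated kinase gene Eif2ak1 (0.44 ± 0.10) and Eif2s1 (0.41 ± 0.10). With GC correction 5 were higher. Under DMSO 3 of the 9 were lower in knockout-labelled than in wild-type cells (Impact, Ppp1r15a and Eif2ak2) and 2 higher (Gcn1l1 and Eif2ak1), the last 2 calls being lost in 3 and 9 of 23 alternative fits. Impact, whose product inhibits GCN2, was lower in knockout-labelled than in wild-type cells under both treatments. It averaged 5.12 ± 1.38 CPM in knockout-labelled and 23.8 ± 3.22 CPM in wild-type docetaxel libraries (-2.21 ± 0.19), and 5.98 ± 0.900 CPM in knockout-labelled and 18.8 ± 2.65 CPM in wild-type DMSO libraries (-1.65 ± 0.19).

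Beside ATF4, 8 transcription factors of the response were tested. In knockout-labelled cells docetaxel lowered none of the 8 and raised Atf3 (18.5 ± 0.749 CPM against 6.27 ± 0.326 CPM under DMSO, 1.56 ± 0.12) and Batf2, named after its values were seen and present at under 1 CPM. In wild-type cells 5 were lower and 1 higher after docetaxel (median -0.51). Without wild-type DMSO library 2 or 3, 1 factor was lower in knockout-labelled cells in place of none, and without library 3 of that group 2 were higher in wild-type cells in place of 1. Atf5, an ATF4 target and relative, averaged 20.3 ± 3.02 CPM after docetaxel and 63.9 ± 38.8 CPM under DMSO in wild-type cells (-1.66 ± 0.32, adjusted p = 0.0022). Atf3 went the other way in these cells, with 21.0 ± 1.41 CPM after docetaxel and 11.3 ± 1.77 CPM under DMSO (0.89 ± 0.12, adjusted p = 0.000132). Under DMSO 5 of the 8 were lower in knockout-labelled than in wild-type cells and none higher, among them Atf5 (-2.27 ± 0.33), Atf3 (-0.85 ± 0.12) and Nfil3 (-0.69 ± 0.11).

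Of 17 other ATF4 targets tested, 3 were lower and none higher after docetaxel in knockout-labelled cells (median -0.19), 11 were lower and none higher in wild-type cells (median -0.75), and 6 were lower in knockout-labelled than in wild-type cells under DMSO. Over the alternative fits the 11 lower in wild-type cells became 8 to 13. The count under DMSO was 3 without knockout-labelled DMSO library 1. Gpt2, an alanine aminotransferase, averaged 32.3 ± 3.93 CPM after docetaxel and 81.0 ± 12.7 CPM under DMSO in wild-type cells (-1.33 ± 0.14, adjusted p = 2.9e-05), and Stc2, a secreted glycoprotein, 6.25 ± 0.930 against 16.2 ± 3.60 CPM (-1.38 ± 0.17, adjusted p = 0.00011). Both were also lower in knockout-labelled cells under DMSO, Gpt2 by -1.25 ± 0.14 and Stc2 by -1.76 ± 0.18. Ndrg1, also known as a hypoxia gene, differed: docetaxel lowered it in knockout-labelled cells too, to 193 ± 21.2 CPM against 476 ± 81.7 CPM under DMSO (-1.30 ± 0.16), beside -1.55 ± 0.17 in wild-type cells. Ddit4, an inhibitor of mTORC1, was lower after docetaxel in knockout-labelled cells (-1.06 ± 0.23, adjusted p = 0.00686), as was Ero1l (-0.53 ± 0.13), whose call was lost without knockout-labelled DMSO library 2 or library 3.

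Of 12 enzymes of serine, proline and one-carbon metabolism, 2 were lower and none higher after docetaxel in knockout-labelled cells (median -0.02), and 7 were lower and 2 higher in wild-type cells (median -0.47). Under DMSO 5 were lower and 2 higher in knockout-labelled than in wild-type cells. The 2 higher in wild-type cells became 1 without wild-type docetaxel library 3 or wild-type DMSO library 2. The 2 higher under DMSO became 1 without knockout-labelled DMSO library 1 or wild-type DMSO library 2, and 0 without the libraries richest in Gm23935. The 2 lower in knockout-labelled cells were Mthfd1l, a mitochondrial folate enzyme (-0.73 ± 0.08), and Aldh18a1, the first step of proline synthesis (-0.34 ± 0.10, adjusted p = 0.0277), whose call was lost in 6 of 23 alternative fits. The proline enzyme Pycr1 averaged 4.72 ± 1.07 CPM after docetaxel and 15.4 ± 2.97 CPM under DMSO in wild-type cells (-1.70 ± 0.22). There Aldh18a1 averaged 70.8 ± 3.38 CPM after docetaxel and 141 ± 17.1 CPM under DMSO (-0.99 ± 0.10), the serine enzyme Psat1 141 ± 3.70 against 242 ± 17.7 CPM (-0.78 ± 0.08), and Mthfd2, also a mitochondrial folate enzyme, 43.5 ± 3.46 against 73.1 ± 2.63 CPM (-0.75 ± 0.09).

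Of 20 cytosolic tRNA synthetases, which charge tRNAs with amino acids, none was lower and 1, Wars, higher after docetaxel in knockout-labelled cells (0.41 ± 0.10), a call lost without knockout-labelled DMSO library 2 or library 3. Without knockout-labelled docetaxel library 2, 3 were higher, without wild-type DMSO library 1 or 2, 2 were higher and 1 lower, and without knockout-labelled docetaxel library 1, 1 was lower. In wild-type cells 10 were lower and 3 higher (median -0.26), with 7 to 11 lower and 2 to 3 higher over the alternative fits. Under DMSO 6 were lower and 1 higher in knockout-labelled than in wild-type cells, the 1 higher being Dars, whose call was lost without knockout-labelled DMSO library 2 or 3 or wild-type DMSO library 3. Those lower included Sars (-0.88 ± 0.15), Aars (-0.69 ± 0.12) and Nars (-0.62 ± 0.09). In wild-type cells Iars averaged 209 ± 14.3 CPM after docetaxel and 321 ± 12.4 CPM under DMSO (-0.62 ± 0.08), while Farsa averaged 71.9 ± 3.50 against 47.7 ± 9.89 CPM (0.59 ± 0.12).

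The other amino acid transporters did not share 1 direction. Of the 26 listed, 13 passed the filter, of which docetaxel lowered 1 in knockout-labelled cells (the taurine transporter gene Slc6a6, -0.45 ± 0.08) and lowered 3 and raised 2 in wild-type cells. Of all tested genes, 7.00% were lower in knockout-labelled cells, and 13.8% were lower and 14.5% higher in wild-type cells. Beside those shares, so few calls are not read as a result about the list. The 2 raised became 1 without wild-type docetaxel library 1 or wild-type DMSO library 2 or 3, and in knockout-labelled cells 2 were raised without knockout-labelled docetaxel library 2 and 1 without knockout-labelled DMSO library 1. Under DMSO 4 were lower and 2 higher in knockout-labelled than in wild-type cells. Slc6a9, a glycine transporter, averaged 13.4 ± 0.855 CPM after docetaxel and 25.2 ± 5.89 CPM under DMSO in wild-type cells (-0.91 ± 0.14), and the cationic transporter gene Slc7a1 140.1 ± 7.78 against 201 ± 6.54 CPM (-0.52 ± 0.07). Slc7a6, which like Slc7a5 encodes a light chain of SLC3A2, rose to 68.2 ± 7.10 CPM after docetaxel, against 46.5 ± 3.19 CPM under DMSO (0.55 ± 0.10). Slc7a7, another light chain of SLC3A2, was lower in knockout-labelled than in wild-type cells under DMSO (2.94 ± 0.123 against 9.03 ± 1.84 CPM, -1.62 ± 0.19) and after docetaxel (2.70 ± 0.601 against 6.22 ± 0.621 CPM, -1.21 ± 0.19). Its lower level after docetaxel in wild-type cells (-0.54 ± 0.18, adjusted p = 0.0407) lost its call in 10 of 23 alternative fits. The paralogues Chac2, Trib1, Trib2, Sesn1 and Sesn3 gave 1 call of 5 after docetaxel in each genotype. These were Trib2 in knockout-labelled cells (-0.43 ± 0.14, adjusted p = 0.0459), lost in 10 of 23 alternative fits, and Sesn1 in wild-type cells (-0.39 ± 0.10). Under DMSO Trib2 and Sesn3 were higher in knockout-labelled than in wild-type cells (0.54 ± 0.14 and 0.30 ± 0.10), calls lost in 5 and 14 of 23 alternative fits.

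More chaperones and regulators of the endoplasmic reticulum were called higher than lower after docetaxel in both genotypes. Of 17, 7 were higher and none lower in knockout-labelled cells (median 0.34), and 11 were higher and 3 lower in wild-type cells (median 0.39). The 3 lower became 1 when any library was left out other than knockout-labelled docetaxel libraries 1 and 2 and wild-type DMSO library 1. Calr, a calcium-binding chaperone, averaged 435 ± 19.1 CPM after docetaxel and 267 ± 18.6 CPM under DMSO in knockout-labelled cells (0.71 ± 0.08), and 594 ± 14.5 against 265 ± 22.6 CPM in wild-type cells (1.17 ± 0.09). Hyou1, Sdf2l1 and Manf were higher in both genotypes, Hyou1 by 0.78 ± 0.09 in knockout-labelled and 1.04 ± 0.09 in wild-type cells. Under DMSO 4 of the 17 were lower in knockout-labelled than in wild-type cells, among them Herpud1 (19.4 ± 1.35 against 47.0 ± 2.70 CPM, -1.28 ± 0.10), Xbp1 (-0.85 ± 0.13) and the stress sensor gene Ern1 (-0.84 ± 0.08). After docetaxel 4 of the chaperones and regulators, 1 of the kinases and their regulators (Impact) and 3 transporters were lower in knockout-labelled than in wild-type cells, 1 transporter and 1 tRNA synthetase were higher, and no other gene of the pathway lists passed. Of these, the call of the transporter gene Slc7a6 (-0.39 ± 0.10, adjusted p = 0.0406) was lost in 8 of 23 alternative fits. That of the synthetase gene Dars (0.34 ± 0.08, adjusted p = 0.0169) was lost without wild-type docetaxel library 1 or 3 or knockout-labelled docetaxel library 1. Without wild-type DMSO library 2 or 3, 1 of the other ATF4 targets was called lower there in place of 0. With DESeq2 or GC correction 7 chaperones and regulators were lower there in place of 4.

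**Figure D3:**
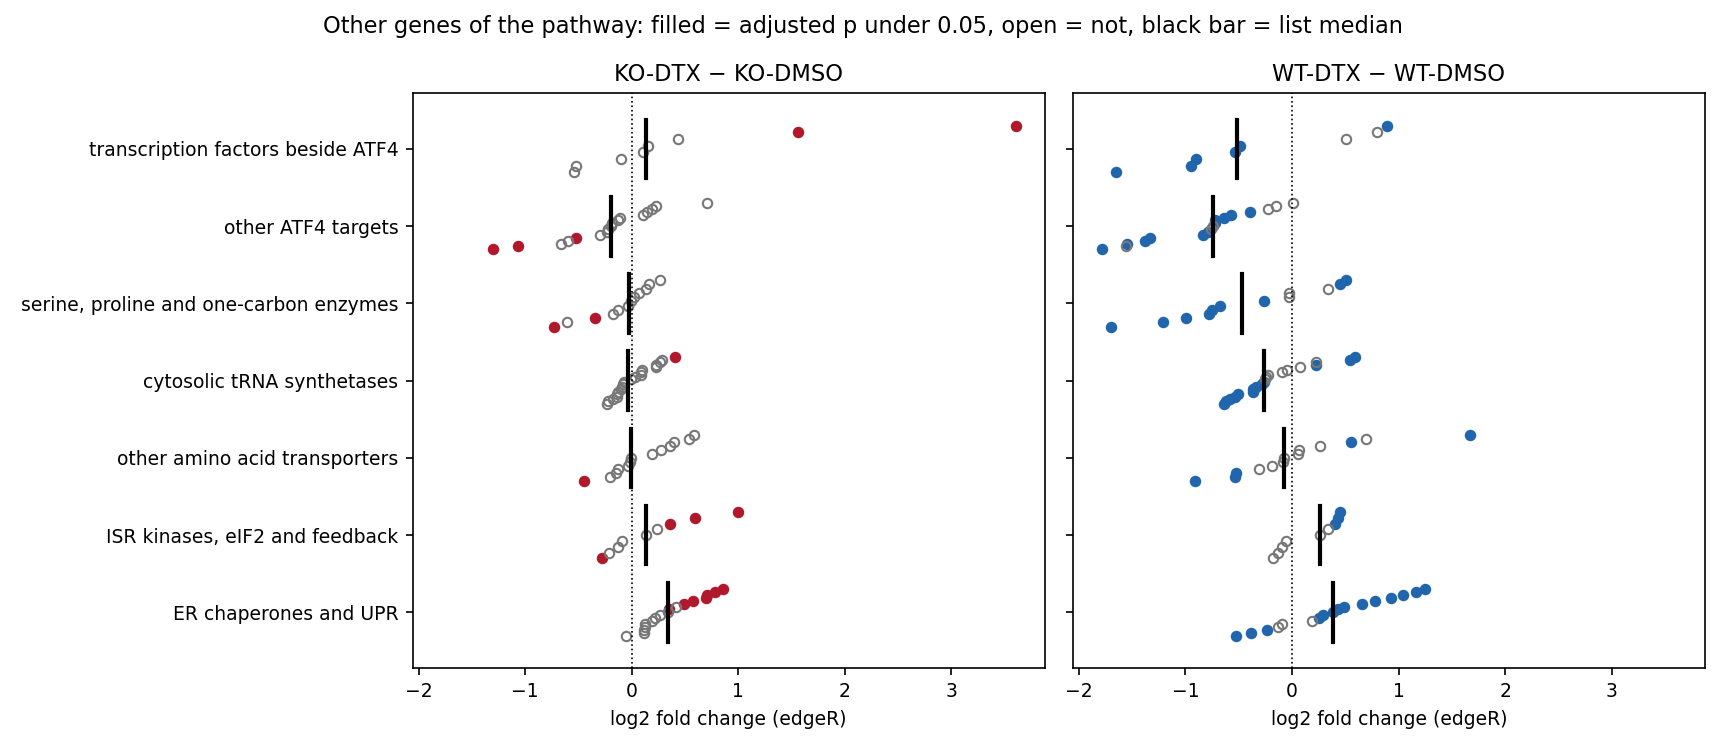
Log2 fold changes after docetaxel (horizontal axes) in knockout-labelled cells on the left and wild-type cells on the right for 7 lists of pathway genes, with filled points for genes past an adjusted p of 0.05, open points for others and black bars for list medians. In knockout-labelled cells the medians lie between -0.19 and 0.34, and in wild-type cells the median is below 0 for 5 lists and above 0 for kinases and chaperones.

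With the settings used above, and in limma-voom, none of the 101 tested genes in these lists passed the test of the interaction, but other settings called some. DESeq2 called 15, the fit with no filter 15 (of 114 tested), RLE scaling 4, a filter of at least 1 CPM in 3 libraries 1 (of 97), GC correction 5, the replicate block 5 and both together 10. Over all tested genes these settings called 165, 421, 23, 16, 39, 48 and 108 in that order. Without wild-type DMSO library 1 the count was 20 of 103, of which 16 were positive, and without any other single library it was 0 to 2. Over all tested genes 431 were called without wild-type DMSO library 1, and 2 to 45 without any other single library. At an unadjusted p of 0.05 the interaction counted 5 of 8 transcription factors, 7 of 17 other targets, 7 of 12 metabolic enzymes, 10 of 20 tRNA synthetases, 3 of 13 transporters, 4 of 9 kinases and regulators, 5 of 17 chaperones and 0 of 5 paralogues, where 11.0% of all tested genes had such a p, and the lists were chosen with earlier results of these data known. DESeq2 called 2, 3, 4, 2, 1, 1, 2 and 0 of them in that order.

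Over the 12 libraries the 9 genes other than Slc1a5 varied together, with Pearson correlations of log2 CPM of 0.81 to 0.99 over 36 pairs (median 0.91). These points share libraries, and most of the correlation is the gap between wild-type DMSO and the rest. For deviations from group means the median over the 36 pairs was 0.63 (0.15 to 0.95), so wild-type DMSO library 3, the highest in the mean standardised level of the 10 at 1.74, and library 1, at 1.08, differed in many of the genes at once. The other 9 libraries lay between -0.84 and -0.01. Slc1a5 correlated with the others at -0.01 to 0.50.

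By the highest correlation with that mean level over 12 libraries, among 9774 protein-coding genes of at least 5 CPM, the genes most alike were Gpt2 (0.98), Aldh18a1 (0.98), Slc6a9 (0.97), Fads3 (0.97), Rin1 (0.96), Snx24 (0.96), Klf9 (0.96) and Dnase1l1 (0.96). Of the 50 most alike genes, 8 (16% of them) were in the pathway lists, which hold 88 of the 9774 candidates (0.9%). Several genes behind that mean level were picked for their interaction pattern, and the lists were chosen with earlier results of these data known. The shares are therefore a description, and no independent support for a link between the lists and these genes. The first 3 are an alanine aminotransferase, a proline enzyme and a glycine transporter named above. Fads3 belongs to the fatty acid desaturase family, Klf9 encodes a zinc finger factor and Rin1 a RAS effector. Klf9 varied little outside wild-type DMSO cells, with 73.8 to 78.8 CPM in knockout-labelled docetaxel libraries, 72.5 to 79.2 CPM in knockout-labelled DMSO libraries and 74.7 to 77.0 CPM in wild-type docetaxel libraries, against 92.6 to 113 CPM in wild-type DMSO libraries.

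**Figure D4:**
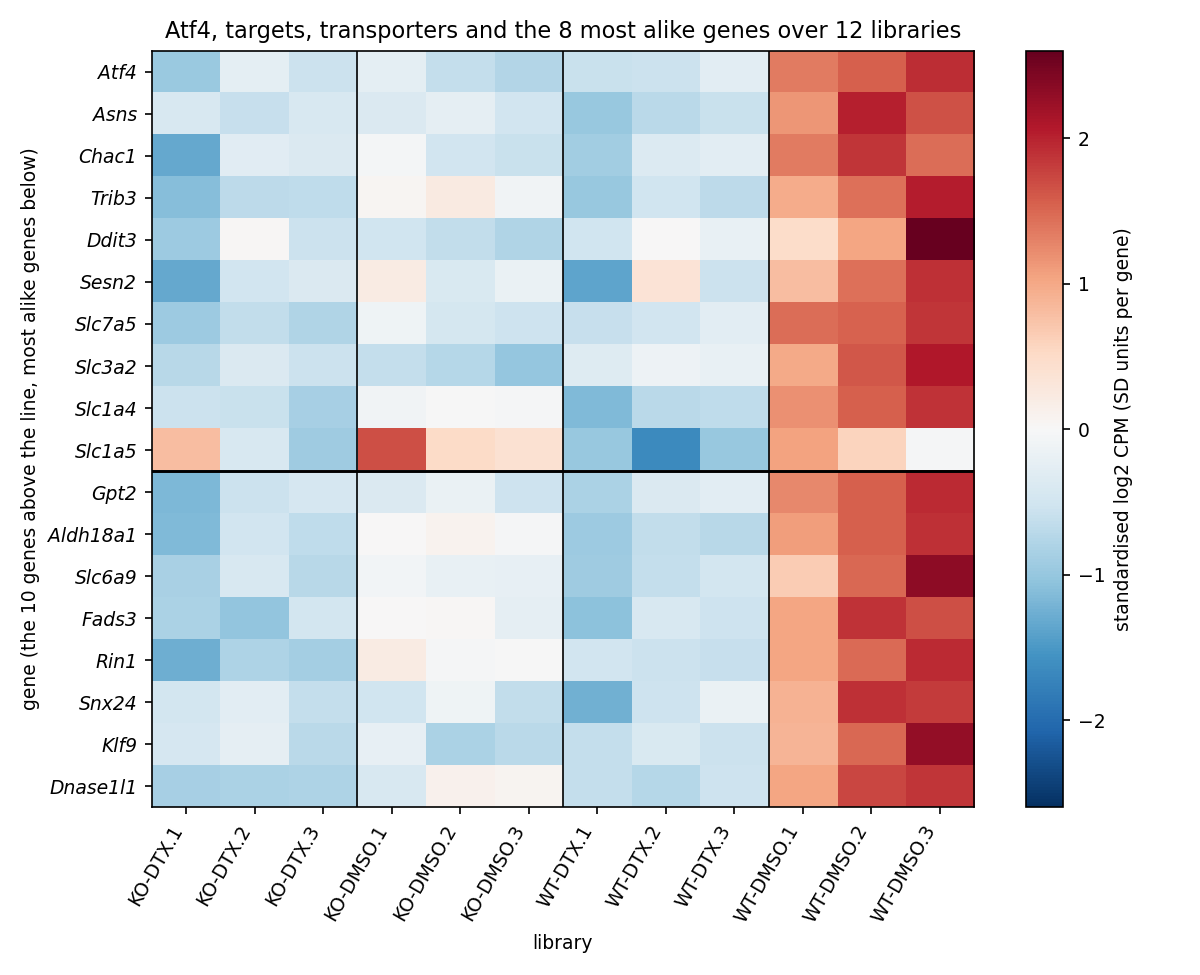
Standardised log2 CPM (colour, SD units per gene) of the 10 genes above the line and the 8 most alike genes below it, over 12 libraries in columns, ordered as knockout-labelled docetaxel, knockout-labelled DMSO, wild-type docetaxel and wild-type DMSO. The 3 wild-type DMSO columns are red in every row but that of Slc1a5, whose highest value is in knockout-labelled DMSO library 1.

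Other measures also differed between groups. Gm23935, whose share overlapped between wild-type DMSO and knockout-labelled docetaxel libraries, was lowest among wild-type DMSO libraries in library 3 (0.435%), the highest in the mean level of the 10 genes. Without the library richest in it in each of the 2 groups (knockout-labelled docetaxel library 3 and wild-type DMSO library 2) 9 of the 10 remained lower after docetaxel in wild-type cells, and 8 in knockout-labelled against wild-type cells under DMSO, where Sesn2 was lost (adjusted p = 0.0992). The 6 fibroblast markers summed to 12.0 to 14.6 CPM in knockout-labelled docetaxel, 14.9 to 18.6 CPM in knockout-labelled DMSO, 19.5 to 21.1 CPM in wild-type docetaxel and 28.3 to 30.6 CPM in wild-type DMSO libraries. Nearly all of this was Pdgfra (11.0 to 29.7 CPM), which was called lower after docetaxel in wild-type cells (-0.56 ± 0.11) and in knockout-labelled against wild-type cells after docetaxel (-0.65 ± 0.11) and under DMSO (-0.92 ± 0.11), while Lum was at 0 in every library and Dcn, Thy1 and Col1a2 were at or below 0.226 CPM. Of the 6 epithelial markers tested, Krt19 was called in all 4 comparisons, lower after docetaxel in knockout-labelled (-0.80 ± 0.17) and wild-type cells (-0.97 ± 0.17) and higher in knockout-labelled than in wild-type cells after docetaxel (0.97 ± 0.17) and under DMSO (0.81 ± 0.17). Krt18 was lower after docetaxel in knockout-labelled (-0.49 ± 0.15) and wild-type cells (-0.50 ± 0.15), calls lost in 7 and 3 of 23 alternative fits. Epcam was higher in knockout-labelled than in wild-type cells after docetaxel (0.47 ± 0.10) and under DMSO (0.46 ± 0.10), calls lost in 5 and 1 of 23, and Krt14 was higher after docetaxel in wild-type cells (0.69 ± 0.14). Leukocyte markers summed to 3.13 to 8.11 CPM and endothelial markers to 0.209 to 1.05 CPM over all libraries. The part of these markers in the results was not tested.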

How the data were processed

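Per the labels' protocols, RNase H removed ribosomal RNA, random hexamers primed the cDNA, and paired reads of 150 bases were sequenced. The submitters' processing notes name bcl2fastq, STAR 2.5.1a, Subread and featureCounts 1.4.6-p5; neither they nor the labels give the build, annotation, strand setting or treatment of multi-mapped reads. The authors deposited 1 table of raw read counts per gene symbol, with a column for each library, matched by its title. Of its 40757 entries, 351 that repeated another in symbol and every count (0.907% of counts) were dropped, and 164 of those kept shared a symbol with another. Positions and exon lengths come from GENCODE M21 (GRCm38), matched by symbol.

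The test was edgeR 4.0.16 in R 4.3.3, with filterByExpr, TMM scaling and 1 quasi-likelihood fit of 4 group means to 12 libraries, two-sided, with Benjamini-Hochberg adjustment over 15538 genes. Standard errors were derived by dividing the size of the log2 fold change by the root of F, and 95% intervals use the t distribution. Log2 CPM used a prior count of 2. The common biological coefficient of variation was 13.2%. Chi-square per degree of freedom within groups was 7.79 to 155, so no library repeated another of its group. The fit was also run on simulated counts with known changes, drawn independently for each gene and library. Such counts lack the shifts shared by many genes of a library, so nothing is read from them here. The genes and lists were chosen with earlier results of these data known. Named genes were the 10 genes, Itgb3, up to 4 called genes per list and comparison with the largest changes and at least 5 CPM, and the 8 most alike genes.

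Alternatives were DESeq2 1.42.0, limma-voom (limma 3.58.1), RLE and upper-quartile scaling, no filter, at least 1 CPM in 3 libraries, the 6 libraries of a comparison, a replicate block, GC correction (lowess, span 0.3), omission of libraries rich in Gm23935, and omission of each library. Figures used matplotlib 3.10.9 in Python 3.11.15.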

Additional observations from a re-analysis of the deposited data

How the results depend on the processing

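In the 4 pairwise comparisons, no call of the 10 genes or of the lists reversed direction under any alternative. Some values that did not pass changed sign, such as that of Atf4 after docetaxel in knockout-labelled cells (log2 fold change -0.09 to 0.07). Of the 10 genes, 9 were lower after docetaxel in wild-type cells and 0 passed between genotypes after docetaxel in every alternative. In knockout-labelled cells 1 was lower after docetaxel, against 2 with DESeq2 and 2 with upper-quartile scaling (Slc1a4 added) and 0 to 2 without single libraries. Over all genes, 2499 were called for docetaxel in knockout-labelled cells, with 1311 to 2881 without single libraries (lowest without knockout-labelled DMSO library 2). For genotype under DMSO 2454 were called, with 1267 without the libraries rich in Gm23935 and 1264 to 3273 without single libraries (lowest without knockout-labelled DMSO library 1). For genotype after docetaxel 915 were called, with 1464 with GC correction and replicate block, 565 without the libraries rich in Gm23935 and 467 to 1083 without single libraries (lowest without wild-type docetaxel library 3). For the interaction 17 were called, with 165 by DESeq2, 8 by limma-voom, 421 with no filter and 48 with the replicate block. There were 39 with GC correction, 108 with GC correction and replicate block, and 4 without the libraries rich in Gm23935. Without single libraries 2 to 431 were called. The 431 arose without wild-type DMSO library 1, whose free-text description names the knockout. Without any other single library the count was 2 to 45. The causes were not tested. Whether replicate numbers pair the libraries was not settled. Correlations of deviations ran from -0.27 to 0.35 for same-numbered libraries, with 4 of 18 over 0.1, and from -0.36 to 0.30 for the others. Of 36 best matches, each among 3 libraries, 19 were the library's own number. The replicate block changed no call of the 10 genes. Without wild-type DMSO library 3 the interaction value of Ddit3 was 0.88 and that of Trib3 0.92. With GC correction that of Slc1a5 was 0.16. Sesn2 had 243 to 470 counts a library.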

Other observations

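Slc36a4 and Slc16a10, low transcripts of the transporter list chosen after their values were seen, differed between genotypes under both treatments. Slc36a4, a proton-coupled amino acid transporter gene, averaged 0.510 ± 0.0657 CPM in knockout-labelled and 3.54 ± 1.08 CPM in wild-type docetaxel libraries (log2 fold change -2.78 ± 0.28), and 0.451 ± 0.101 CPM in knockout-labelled and 3.38 ± 0.378 CPM in wild-type DMSO libraries (-2.90 ± 0.29). Both calls held in 23 of 23 alternative fits. Slc16a10, an aromatic amino acid transporter gene, went the other way, with 6.16 ± 1.84 CPM in knockout-labelled and 2.70 ± 0.620 CPM in wild-type docetaxel libraries (1.19 ± 0.25), and 4.28 ± 0.515 CPM in knockout-labelled and 1.67 ± 0.450 CPM in wild-type DMSO libraries (1.36 ± 0.27). Its call after docetaxel was lost without wild-type docetaxel library 3 (adjusted p = 0.0569). Neither gene passed for docetaxel in either genotype.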
